A study of Arabidopsis thaliana with 8 samples.

Results

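Guard cell transcripts of bam1 plants and of wild-type Col-0 plants were compared after both had been kept under heat. This comparison comprised 4 of the 8 arrays of the series, 2 of bam1 under heat and 2 of Col-0 under heat, chosen by their labels. The other 4 arrays, 2 of each genotype without stress, served as the reference for what separated the genotypes without heat. bam1 is a homozygous T-DNA insertion line in the Col-0 background, so that the mutant is represented by 1 line. All plants were 5 weeks old. Heat meant 32 °C by day and 28 °C by night for 3 d, and unstressed plants were kept at 22 °C and 18 °C. All leaves were taken when the light period ended, and each replicate was RNA from a stomatal preparation of several pooled plants, hybridized in 1 colour to an Agilent Arabidopsis array. Replicate 1 of every group lay on the first slide and replicate 2 on the second, and bam1 was compared with Col-0 within each slide. The question was which transcripts of heated guard cells differed when BAM1 was missing.

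BAM1 is a β-amylase of the chloroplast, which releases maltose from starch and takes part in the breakdown of guard cell starch when stomata open. Plants answer heat through heat shock factors, transcription factors that switch on genes for heat shock proteins. Small heat shock proteins hold unfolding proteins in a soluble state, HSP70 and HSP90 refold them with ATP, and HSP101, of the HSP100 class, pulls proteins out of aggregates. Small heat shock proteins are scarce in unstressed leaves.

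All values are log2 intensities after quantile normalization, and a difference is bam1 minus Col-0, so that 1 on this scale is 2-fold. On the 4 heat arrays, between 61.3% (bam1 replicate 2) and 70.8% (bam1 replicate 1) of 43603 features were well above background. The genotypes were alike in most transcripts: 98.0% of features differed by less than 2-fold in the mean of both slides, and the median size of a difference was 0.13. With 2 arrays per group, limma called 0 of 29615 features (0%) at an adjusted P below 0.05 and over 2-fold, and the smallest adjusted P was 0.139. At an unadjusted P below 0.05 there were 1831 features (6.18%), of which 358 differed by over 2-fold (164 higher, 194 lower). Under the methods' t-test there were 103 features at an unadjusted P below 0.05 and over 2-fold (50 higher, 53 lower) and 0 after Benjamini-Hochberg adjustment. Where the background was instead corrected with normexp, which damps the noise of dim spots, limma called 31 features (0.105%), 28 higher and 3 lower in bam1. Letting limma's prior variance follow intensity and resist outliers, its trend and robust options, it called 16 (0.054%), 14 higher and 2 lower, and among 25341 features above background on all 8 arrays it called 3 (0.0118%), 2 higher and 1 lower. No feature is therefore described below as changed unless such a setting is named, and values are given for both slides. The replicates are separate pools of plants, and their number limits the precision of every value.

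BAM1 (AT3G23920) checked the labels first. Under heat its log2 intensity was 11.72 and 12.22 on the Col-0 arrays and 6.83 and 7.68 on the bam1 arrays. The genotypes did not overlap, and the transcript lay 29.7-fold lower in bam1 on the first slide and 23.4-fold lower on the second. The mean difference was -4.72 ± 0.35 (SE, n = 2 per group; limma adjusted P = 0.19). An exact permutation of 2 arrays against 2 gave a two-sided P of 0.333, the smallest this design allows. The same loss was measured without stress, at -5.00 and -4.32. Of the genes next to BAM1 on chromosome 3, AT3G23930 was higher in bam1 under heat by 0.99 and 1.26 (limma adjusted P = 0.852). Without stress it differed by 0.56 and 0.02, but it was not above background on any unstressed array. AT3G23910, on the other side, has no feature on the array.

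The clearest difference under heat lay in the small heat shock proteins. All 17 listed genes were measured, and all 17 were higher in bam1 than in Col-0 on both slides, against 28.7% of the 18430 loci measured. Their median difference was 2.08, which is 4.24-fold, with medians of 2.43 on the first slide and 1.70 on the second, while the median over all loci was 0.00. In 16 of the 17 both bam1 arrays lay above both Col-0 arrays, as for 14.7% of all loci, and the exception was AT2G19310. By limma 14 of 17 had an unadjusted P below 0.05, against 2.7% of loci with a higher value in bam1, but 0 of 17 passed after adjustment over all features. With normexp correction 10 of the 17 passed, and they were among the 28 features that rose. In all 17 the heated arrays of Col-0 lay above all 4 unstressed arrays, and those of bam1 lay higher still in 16.

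**Figure D1:**
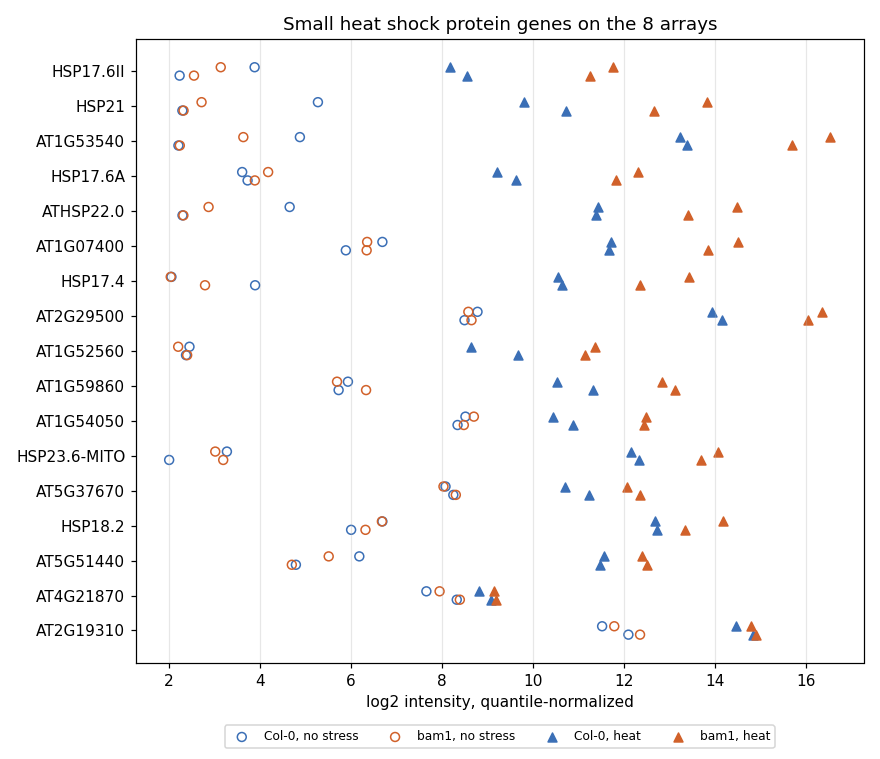
Log2 intensity (quantile-normalized, horizontal axis) of 17 small heat shock protein genes on each of the 8 arrays, with circles for unstressed and triangles for heated plants, blue for Col-0 and orange for bam1. In each row the replicate of the first slide is drawn slightly above that of the second, and under heat the bam1 triangles lie to the right of the Col-0 triangles in 16 of 17 rows.

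The largest difference was that of HSP17.6II (AT5G12020), a small heat shock protein of the cytosol. It stood at 8.18 and 8.55 in Col-0 under heat and at 11.76 and 11.25 in bam1, a difference of 3.14 ± 0.44 (SE; limma adjusted P = 0.315), or 8.82-fold. Without stress it lay between 2.23 and 3.88 in both genotypes, but it was not above background on any unstressed array. HSP17.6A (AT5G12030), another cytosolic member, was at 9.20 and 9.63 in Col-0 and 12.30 and 11.82 in bam1, which is 6.26-fold (2.65 ± 0.24, SE; limma adjusted P = 0.203). For both genes the bam1 arrays lay well above the Col-0 arrays, by more than the spread within either pair.

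AT1G53540, AT1G07400 and AT2G29500 belong to the same list and are given by locus. AT1G53540 was at 13.23 and 13.38 in Col-0 and at 16.54 and 15.70 in bam1, so that an already strong signal was 7.05-fold stronger. AT1G07400 was at 11.71 and 11.68 against 14.50 and 13.85, or 5.57-fold higher in bam1. AT2G29500 was among the 5 loci with the smallest P of the whole comparison, at 13.94 and 14.16 in Col-0 and 16.36 and 16.04 in bam1 (2.16 ± 0.18, SE; limma adjusted P = 0.19). It passed adjustment when only features above background on all 8 arrays were tested (adjusted P = 0.0383), with normexp and with the trend and robust options. HSP17.4 (AT3G46230) was at 10.56 and 10.65 against 13.43 and 12.35, and HSP18.2 (AT5G59720) at 12.68 and 12.72 against 14.17 and 13.33. None of these 5 genes had overlapping genotypes.

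The organelle members showed the same direction. HSP21 (AT4G27670), which protects the chloroplast, was at 9.81 and 10.73 in Col-0 and at 13.83 and 12.67 in bam1. Its difference was 4.02 on the first slide and 1.94 on the second, the widest gap between slides in the list, and its mean was 2.98 ± 0.86 (SE; limma adjusted P = 0.695). ATHSP22.0 (AT4G10250), of the endoplasmic reticulum, was 5.80-fold higher, at 11.43 and 11.40 against 14.49 and 13.41. The mitochondrial HSP23.6-MITO (AT4G25200) was at 12.15 and 12.33 against 14.06 and 13.70, or 3.12-fold higher. Chloroplast, endoplasmic reticulum and mitochondrial members were thus all higher in bam1 on both slides.

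Of the remaining members, AT1G52560, AT1G59860, AT1G54050 and AT5G37670 were 2.35- to 4.24-fold higher, with limma adjusted P between 0.247 and 0.349. The 3 members without an unadjusted P below 0.05 were AT5G51440 (0.93), AT4G21870 (0.22) and AT2G19310 (0.19). Of these, AT2G19310 and AT4G21870 were already at 11.52 or above and at 7.66 or above in unstressed plants. In 16 of 17 genes the difference was larger on the first slide than on the second. Each of the 17 genes is read by 1 feature, and close relatives within the family may share signal, which was not tested. In RNA from a preparation of many cells, more transcript per cell and more cells that carry it cannot be told apart.

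Values for the larger chaperones differed widely within each class. Of 24 listed HSP70, HSP90 and HSP100 genes 23 were measured, 17 were higher in bam1 on both slides and 2 were lower (28.7% and 28.6% of all loci), with a median of 0.27. By limma 11 of 23 had an unadjusted P below 0.05, all higher in bam1, against 2.7% of loci, and 0 passed adjustment. HSP101 (AT1G74310), the disaggregase needed for acquired heat tolerance, had the smallest P of all 29615 features. It was at 11.12 and 11.91 in Col-0 under heat and at 13.67 and 14.11 in bam1, a difference of 2.38 ± 0.15 (SE; limma adjusted P = 0.139), which is 5.19-fold. Without stress it lay between 7.64 and 8.47 in all 4 preparations. It passed adjustment with normexp (adjusted P = 0.000865), with the trend and robust options (0.00574) and among features above background on all 8 arrays (0.0205).

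**Figure D2:**
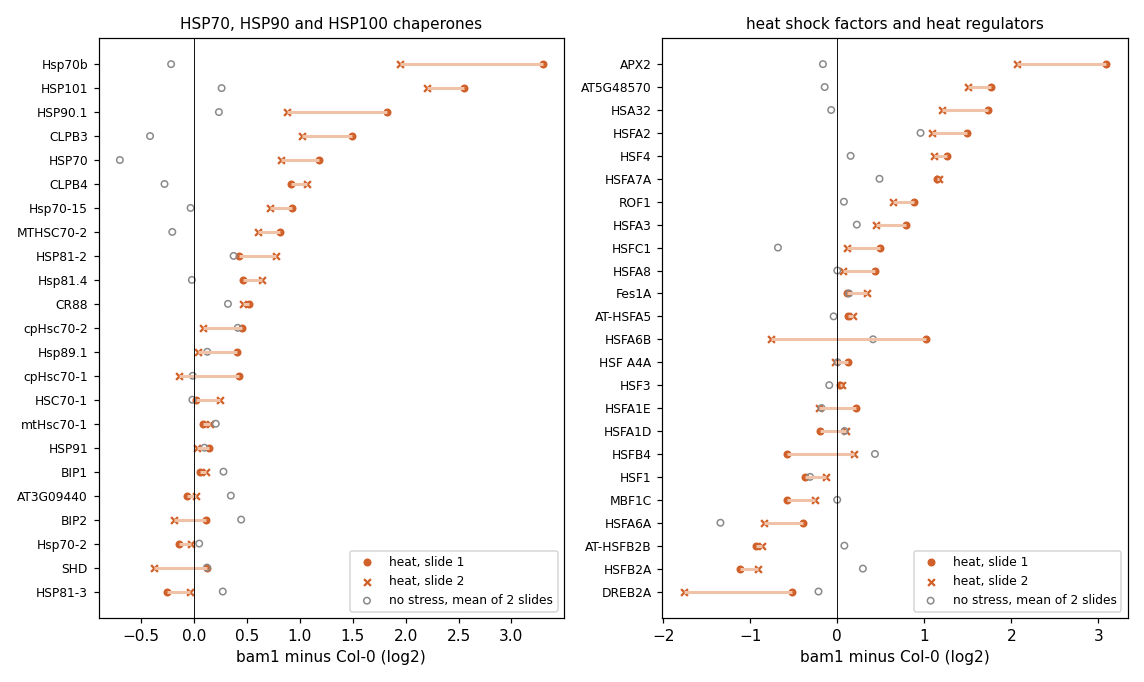
bam1 minus Col-0 (log2, horizontal axis) for 23 chaperone genes (left) and 24 heat shock factors and heat regulators (right), with filled circles for the first slide under heat, crosses for the second slide and open grey circles for the mean without stress. Hsp70b and HSP101 lie furthest to the right on the left panel and APX2 on the right panel, while HSFB2A, AT-HSFB2B and DREB2A lie to the left of 0 on both slides.

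The organelle relatives of HSP101 followed. CLPB3 (AT5G15450), the chloroplast disaggregase, was at 10.88 and 10.24 in Col-0 and at 12.37 and 11.26 in bam1, or 2.38-fold higher (1.25 ± 0.17, SE; limma adjusted P = 0.288). CLPB4 (AT2G25140), its mitochondrial counterpart, was higher by 0.91 and 1.07. Among HSP70 genes the stress-induced members stood out. Hsp70b (AT1G16030) was at 8.49 and 8.27 against 11.79 and 10.21, which is 6.15-fold, and HSP70 (AT3G12580) was higher by 1.18 and 0.82. The constitutive cytosolic HSC70-1 differed by 0.02 and 0.24 in the brightest of its 8 features, whose mean differences ran from -0.40 to 0.13, and Hsp70-2 by -0.14 and -0.03. HSP90.1 (AT5G52640), the heat-induced cytosolic HSP90, was at 14.16 and 14.96 against 15.98 and 15.83, or 2.54-fold higher, and a second feature for it was higher by 1.31 and 1.18.

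The lumenal chaperones of the endoplasmic reticulum differed by less than Hsp70b and HSP90.1. BIP1 differed by 0.06 and 0.11, BIP2 by 0.11 and -0.19, and SHD, the HSP90 of that compartment, by 0.12 and -0.38. All 3 stood between 13.67 and 14.82 under heat in both genotypes and between 11.60 and 13.58 without stress, with the genotypes overlapping or within 0.38 of each other on either slide. Chloroplast cpHsc70-1 differed by 0.42 and -0.14. A difference between compartments was not tested.

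The factors and regulators of the heat response went both ways. Of 27 listed genes 24 were measured, of which 13 were higher and 6 lower in bam1 on both slides (28.7% and 28.6% of all loci), with a median of 0.14. At an unadjusted P below 0.05 by limma 7 were higher and 2 lower, against 2.7% and 2.9% of loci, and 0 passed adjustment. APX2 (AT3G09640), a cytosolic ascorbate peroxidase and a classic target of the heat shock factors, was at 9.69 and 9.81 in Col-0 and at 12.78 and 11.88 in bam1, 5.98-fold higher (2.58 ± 0.26, SE; limma adjusted P = 0.235). ROF2 (AT5G48570), a peptidyl-prolyl isomerase that modulates HSFA2, was at 13.41 and 12.98 against 15.17 and 14.48 (1.63 ± 0.14, SE; limma adjusted P = 0.193). HSA32 (AT4G21320), a protein that prolongs acquired tolerance, was higher by 1.73 and 1.20, and in a second feature by 2.03 and 0.58. For these 3 genes the bam1 arrays lay above both Col-0 arrays, and each rose with normexp.

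Among the factors themselves, HSFA2 (AT2G26150), which sustains the response, was at 10.11 and 11.02 in Col-0 and at 11.61 and 12.11 in bam1 (1.30 ± 0.15, SE; limma adjusted P = 0.264). HSFA2 was also higher in bam1 without stress, by 0.83 and 1.08. HSFA7A was higher by 1.15 and 1.17, and HSF4, the class B factor also named HSFB1, by 1.27 and 1.11. Other class B factors lay the other way. HSFB2A (AT5G62020) was at 11.05 and 11.17 in Col-0 and at 9.94 and 10.26 in bam1 (-1.01 ± 0.30, SE; limma adjusted P = 0.696), and AT-HSFB2B (AT4G11660) was lower by 0.93 and 0.87 in size. DREB2A (AT5G05410), an activator in heat and drought, differed by -0.52 and -1.77, and its other 2 features also lay lower on both slides. MBF1C (AT3G24500), a coactivator of the heat response, was at 15.61 and 16.11 in Col-0 and 15.04 and 15.86 in bam1, where the genotypes overlapped. The class A1 factors that start the response, HSF1, HSFA1D, HSFA1E and HSF3, differed by 0.37 or less in size in their brightest features.

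**Figure D3:**
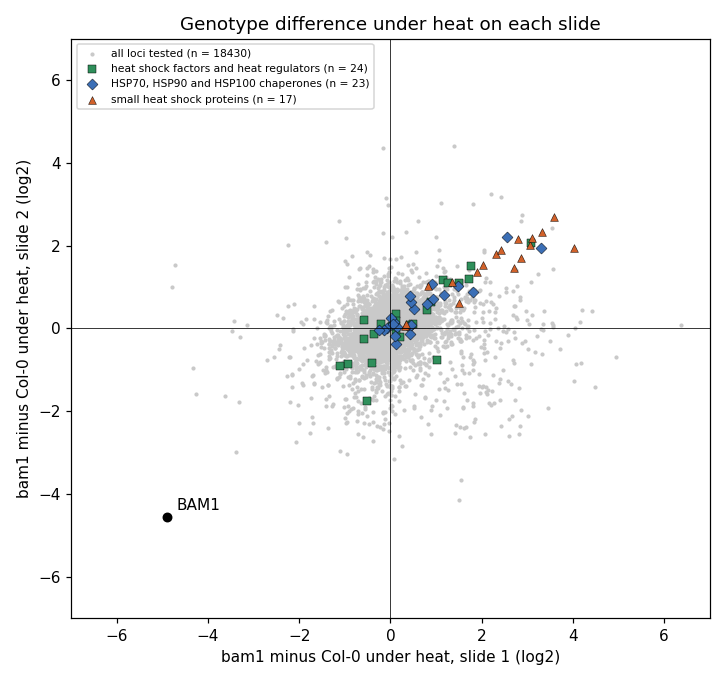
bam1 minus Col-0 under heat on the first slide (horizontal, log2) and on the second slide (vertical, log2) for 18430 loci, with small heat shock proteins as orange triangles, HSP70, HSP90 and HSP100 chaperones as blue diamonds and heat shock factors and regulators as green squares. At the upper right, 22 genes of the 3 lists passed 2-fold on both slides, while 6 factors and regulators and 2 chaperones were lower in bam1 on both. BAM1 has the lowest value of all loci on each slide.

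Without stress the small heat shock proteins did not differ in one direction. The median of the 17 was 0.01 in unstressed plants, with -0.24 on the first slide and 0.14 on the second, and 8 of them were not above background on all 8 arrays. The genotype difference under heat exceeded that without stress in 13 of the 17, in 8 of 23 larger chaperones and in 6 of 24 factors at an unadjusted interaction P below 0.05 (limma), against 2.79% of all loci. It lay below that without stress in 2 of the 24 factors, against 3.05% of loci. None of these passed adjustment over all features, and the smallest adjusted P among the heat lists was that of HSP101, at 0.468. Over all features 1 passed, AT3G59170 (limma adjusted P = 0.0286), which was not above background on any heat array and was 4.17 and 4.52 higher in bam1 without stress. It is named here because it was the sole feature to pass.

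Heat genes were frequent among those that differed by over 2-fold in both replicates. Of all features, 68 were over 2-fold higher in bam1 on both slides (0.23%) and 48 were over 2-fold lower (0.163%). The slides differed in direction: 600 features were over 2-fold higher and 328 lower on the first slide alone, and 186 higher and 366 lower on the second. Keeping genes above background on all 4 heat arrays, 35 loci were higher and 7 lower. The 3 heat lists held 22 of the 35 and 0 of the 7. Their tested members numbered 64, out of 18477 loci tested. At so small a share, 0 of 7 says nothing about the lists. Across 29455 features the differences on the first and second slide correlated with r = 0.18, a value over features and not over samples.

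Outside the heat lists, 13 further loci above background on all 4 heat arrays were over 2-fold higher on both slides. AT3G24420, a hydrolase of the alpha/beta fold family, stood at 5.41 and 6.32 in Col-0 and at 8.95 and 8.76 in bam1 under heat (2.99 ± 0.29, SE; limma adjusted P = 0.23), or 7.94-fold higher. Without stress it was between 8.92 and 9.57 in both genotypes. The heated bam1 arrays thus lay near the unstressed level, while those of heated Col-0 lay far below it. TCH4 (AT5G57560), a touch-induced xyloglucan endotransglucosylase, was at 7.98 and 7.51 in heated Col-0, 10.17 and 8.62 in heated bam1 and 11.04 or above without stress, so that heated bam1 lay between heated Col-0 and the unstressed arrays. AT5G46295 was at 5.93 and 6.36 against 8.81 and 8.96, and was also higher in bam1 without stress, by 0.91 and 2.20.

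ASN1 (AT3G47340), the asparagine synthetase that is induced by darkness and sugar starvation, was at 6.55 and 5.97 in heated Col-0 and at 7.76 and 7.22 in heated bam1 (1.23 ± 0.21, SE; limma adjusted P = 0.387). Of the 13 starvation and trehalose phosphate genes measured, ASN1 among them, 6 were higher and 2 lower on both slides (28.7% and 28.6% of all loci). DIN10 and SEN1 differed by 0.16 or less in size. AT1G64380, annotated as ethylene-responsive factor ERF061, was higher by 1.68 and 1.21, and in a second feature by 1.07 and 0.61. CML38, a calmodulin-like protein, was higher by 1.60 and 1.14 under heat and differed by -1.13 and 0.74 without stress. The others were GDPD3, AT1G12064, AT5G17350, AT1G30250, AT1G74450, AT3G49160 and AT1G44414, with mean differences between 1.09 and 1.59. Of these, AT5G17350 differed by -1.26 and 1.29 without stress.

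By the same rule, over 2-fold on both slides and above background on all 4 heat arrays, 7 loci lay lower in bam1. Besides BAM1, the largest difference among them was that of AT5G03545, listed in the reference as AT4 and as induced by phosphate starvation. It was at 10.88 and 10.51 in heated Col-0 and at 7.24 and 8.88 in heated bam1 (-2.63 ± 0.47, SE; limma adjusted P = 0.413), and its second feature differed by -3.92 and -1.54. Without stress it differed by -1.13 and -0.35. JAL23 (AT2G39330), a jacalin-related lectin, was at 8.13 and 7.73 against 4.82 and 5.96, and its second feature, above background only in Col-0, was at least 2.23-fold lower in bam1. COR15A (AT2G42540), a chloroplast protein of cold and drought tolerance, was at 11.23 and 10.61 against 9.82 and 9.59, which is 2.33-fold lower. With normexp JAL23 and COR15A fell beside BAM1, as the 3 lower features called there.

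AT3G62950 was at 6.87 and 6.95 in heated Col-0 and 4.84 and 5.09 in heated bam1 (-1.95 ± 0.16, SE; limma adjusted P = 0.19), on 3 of 4 heat arrays above background. Without stress it stood near 10 in both genotypes. The cysteine protease gene AT4G11320 (AtCP2) differed by -1.08 in the mean under heat (limma adjusted P = 0.264) and was higher by 0.69 and 0.46 without stress in its brighter feature. A dim second feature differed by -0.61 and -2.09 under heat and by 0.13 and -0.47 without stress, so that the features disagree without stress. AT5G22580 and AT4G09260 completed the 7 loci, with mean differences of -1.42 and -1.20.

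Starch genes other than BAM1 differed by small amounts. Of 25 measured genes of starch breakdown, 5 were higher and 13 lower on both slides (28.7% and 28.6% of all loci). The median was -0.07. By limma 2 of 25 had an unadjusted P below 0.05, against 2.9% of loci, and 0 passed adjustment. These 2, both lower in bam1, were BAM1 itself and AMY1. AMY1, an α-amylase outside the chloroplast, was dim, above background on 3 of 4 heat arrays, and differed by -0.90 and -0.60. CT-BMY (BAM3), the main β-amylase of leaf starch at night, differed by 0.10 and -0.25, BAM2 by 0.08 and 0.03, and BAM5 by -0.30 and -0.62. Dim second features of BAM2 and BAM5, above background on 3 of 4 heat arrays, differed by -0.49 and -2.37 and by -0.52 and -1.82. The α-amylase AMY3, which acts beside BAM1 in guard cells, differed by -0.27 and -0.24. The highest value of any other β-amylase gene in heated bam1 was 0.31, that of BAM6 on the second slide. Of 19 genes of starch synthesis, 4 were higher and 6 lower on both slides with a median of -0.01. The largest was GPT2 (AT1G61800), the carrier that brings glucose 6-phosphate into plastids, at 6.12 and 6.08 in Col-0 and 6.81 and 6.96 in bam1, and without stress it was higher by 1.39 and 1.26. A dimmer second feature of GPT2 differed by 0.38 and -0.44 under heat and by -3.48 and -2.77 without stress, so that its features disagree.

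**Figure D4:**
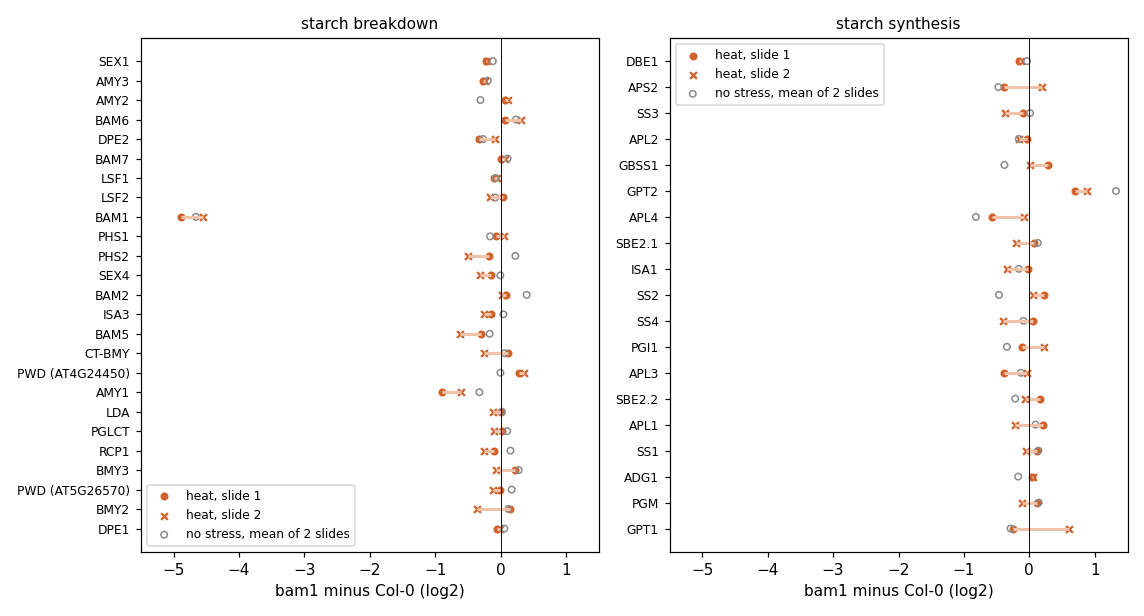
bam1 minus Col-0 (log2, horizontal axis) for 25 genes of starch breakdown (left) and 19 of starch synthesis (right), with filled circles for the first slide under heat, crosses for the second slide and open grey circles for the mean without stress. BAM1 stands apart near -5 in both conditions, and the other genes lie within about 1 of 0, with GPT2 to the right.

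Cell type markers were compared because the preparation could hold other cells. All 15 guard cell markers were above background on all 4 heat arrays. Their median difference was -0.53 on the first slide, 0.02 on the second and -0.66 in the mean without stress. On both heat slides 1 of 15 was higher and 7 were lower (28.7% and 28.6% of all loci). By limma 1 of 15 was higher at an unadjusted P below 0.05, against 2.7% of loci. Without stress 1 was higher and 13 were lower on both slides, against 29.1% and 24.0% of all features, with medians of -0.84 and -0.71. Their summed intensity was 66855 and 59471 in heated Col-0 and 55630 and 53007 in heated bam1. The slide with the lower guard cell markers was also the slide on which 16 of the 17 small heat shock proteins differed more. The markers' part in the heat gene difference was not tested.

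Mesophyll markers, 14 of 14 above background, had a median of -0.06 and a summed intensity of 1580380 and 1584380 in heated Col-0 against 1598360 and 1490280 in heated bam1. Guard cells hold chloroplasts too, and RNA of mesophyll cells in the preparations cannot be told apart from theirs. Of the 14, 2 had an unadjusted P below 0.05, both lower in bam1, against 2.9% of loci. Epidermis and trichome markers had a median of 0.05 over 10 genes, with sums of 141428 and 84892 in Col-0 and 137340 and 123436 in bam1. Vascular markers, 12 of 12 above background, had a median of 0.21, with 7 higher and 3 lower on both slides (28.7% and 28.6% of all loci). By limma 4 of 12 had an unadjusted P below 0.05, all higher in bam1, against 2.7% of loci. These 4 were xylem genes or a vascular regulator, IRX1, CESA4, XCP1 and HB-8, by 0.49 to 0.56 in the mean. The phloem marker SUC2 differed by 0.16 and 0.01. The list held further phloem genes, and SUC2 does not stand for them. The lowest of the 12 markers differed by -0.34 in the mean. A difference between xylem and phloem markers was not tested. The summed vascular intensity, 141014 and 125424 in Col-0 and 123079 and 137173 in bam1, did not separate the genotypes.

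Lists of stress hormone and growth genes had no direction in common. Of 24 genes of the abscisic acid and drought response, 5 were higher and 11 lower on both slides (28.7% and 28.6% of all loci), with a median of -0.14. Without stress 1 was higher and 15 were lower on both slides, against 29.1% and 24.0% of all features. LTI30, a dehydrin above background on 3 of 4 heat arrays, was lower by 0.85 and 0.85 in size under heat and by 0.84 and 0.87 without stress. CYP707A3, which degrades abscisic acid, was at 8.24 and 8.41 in heated Col-0 against 10.92 and 9.33 in heated bam1 (limma adjusted P = 0.768). Without stress its slides went opposite ways, at -1.05 and 1.27. Aquaporins had a median of 0.04 over 26 genes. RD28 (AT2G37180), a water channel of the plasma membrane, was an exception, at 8.08 and 8.45 against 10.02 and 9.37 (1.43 ± 0.30, SE; limma adjusted P = 0.517). Of 20 expansins, 12 were higher and 3 lower on both slides (28.7% and 28.6% of all loci), with a median of 0.18. Aux/IAA repressors had a median of -0.12 and fasciclin-like arabinogalactan proteins one of 0.02.

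Lists of sugar and secondary metabolism had medians closer to 0 than the small heat shock proteins. Sucrose synthases SUS3 and SUS4 were lower in bam1 by 0.60 and 1.17 in the mean under heat, with SUS4 above background on 3 of 4 heat arrays, and without stress SUS3 was lower by 1.07 and 0.91 and SUS4 by 0.61 and 1.16. GolS1 (AT2G47180), a galactinol synthase that heat shock factors switch on, was at 12.51 and 12.83 in Col-0 and at 13.76 and 13.77 in bam1. It was 2.14-fold higher, by 1.25 and 0.94 (limma adjusted P = 0.755), whereas without stress it was lower in bam1 by 1.44 and 0.37. Its second feature was higher by 1.35 and 0.58 under heat and differed by -1.12 and 1.24 without stress. Of 14 genes of aliphatic glucosinolate synthesis 0 were higher and 8 lower on both slides (28.7% and 28.6% of all loci). Their median was -0.22. By limma 4 of 14 had an unadjusted P below 0.05, all lower in bam1, against 2.9% of loci, and 0 passed adjustment. The chain elongation genes BCAT4 and IMS2 were among these 4. The glucosinolate list was lower in bam1 without stress too, with a median of -0.17. Of 9 flavonoid genes measured 6 were higher and 2 lower on both slides under heat (28.7% and 28.6% of all loci). Their median was 0.32, against -0.38 without stress. By limma 1 of 9 had an unadjusted P below 0.05, higher in bam1, against 2.7% of loci, and 0 passed adjustment. Clock genes had a median of 0.20 over 14 genes, and 0 of 14 had an unadjusted P below 0.05. Defence and jasmonate genes had a median of -0.16, and WRKY40 differed by 2.21 and 0.64 under heat and by -1.70 and 1.84 without stress.

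**Figure D5:**
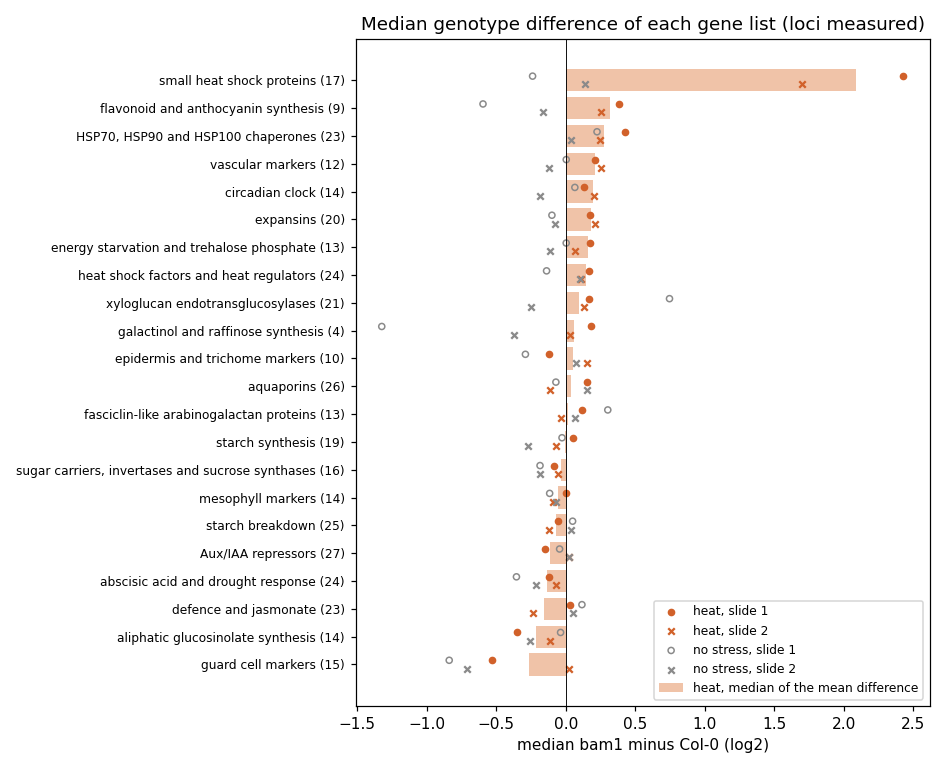
Median bam1 minus Col-0 (log2, horizontal axis) of 22 gene lists, with the number of loci measured in parentheses, bars for the mean of both slides under heat, orange symbols for each slide under heat and grey symbols for each slide without stress. The small heat shock proteins, at 2.08, stand apart from the other 21 lists, whose bars lie between -0.26 and 0.32.

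A few features separated the genotypes in both conditions. Besides BAM1, 6 features were over 2-fold higher in bam1 on both slides with and without heat. They included AT5G48140, above background on both heated bam1 arrays and neither heated Col-0 array, which was at least 3.74-fold higher in bam1 under heat. GDPD3 and AT1G63057 were also among them, but neither was above background on any unstressed array, so that their differences without stress rest on dim signal. The other 3 features have no locus in the reference table. Of these, A_84_P848499 was at least 26.5-fold and A_84_P836925 at least 9.18-fold higher in heated bam1. Among the 68 features over 2-fold higher under heat, 21 were higher on both slides without stress, which is 30.9% against 29.1% of all features.

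Detection in a single genotype under heat was lopsided. On both arrays of bam1 but neither of Col-0, 19 features were above background, and 150 on both of Col-0 but neither of bam1. bam1 replicate 2 had the lowest share of features above background of all 8 arrays, and its part in this count was not tested. Few of these differences had size: the bound was over 2-fold for 8 of the 19 and for 6 of the 150. For this bound, a dim feature was set on each array to its own value or to that of the weakest feature well above background, whichever was larger, and the brighter genotype was divided by that mean. Among those seen in Col-0, SPL4, a promoter of flowering, was at least 3.44-fold higher there than in bam1 in 1 feature, at 7.01 and 5.27 against 3.49 and 3.43. Its other 2 features, above background on all 4 heat arrays, differed by -0.28 and -0.18 in the mean, so that the features of SPL4 disagree. AT1G60060 was at least 3.29-fold higher in Col-0. Among those seen in bam1, AT1G11490 was at least 2.60-fold and LCR13, a defensin-like peptide, at least 2.18-fold higher.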

How the data were processed

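Guard cell RNA of 8 samples was hybridized in 1 colour. The authors deposited, for each array, the Agilent Feature Extraction output (version 11.5.1.1 per the file headers), whose background-corrected spot intensity, spot and background medians and quality marks were used, and a table of log2 values. Of that table's values, 99.7% lay within 0.05 of log2 intensities scaled to the 75th percentile and centred per feature. Outlier spots were left out, and 3 saturated spots kept. Intensities were log2-transformed, quantile-normalized and fitted with limma 3.58.1 (R 4.3.3) as 4 group means plus the slide, with 3 residual degrees of freedom, over 29615 features above background on both arrays of a group. P-values were adjusted by Benjamini-Hochberg. Replicate numbers mark slides, and same-slide deviations correlated with r of 0.28 to 0.63 in all 6 pairs of groups. Of 43603 features, 34348 matched a locus in the RefSeq table (TAIR10.1). The brightest feature stands for a locus.

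Named genes are BAM1 and its neighbours, the 10 most higher and most lower loci over 2-fold on both slides, the 5 smallest P, up to 3 genes per list with the largest difference of the same sign on both slides, and 3 per direction above background in a single genotype. Other members of the 22 lists, the further loci over 2-fold on both slides and features without a locus were added to the text with their values known. The comparison and the lists were chosen with earlier results of these data known. Fits were checked on simulated data. Alternatives covered normalization, background correction, the authors' log2 table, filters, variance options, tests, the slide block and leaving out arrays. No sequences were used here.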

Additional observations from a re-analysis of the deposited data

How the results depend on the processing

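The count of 0 called features stayed 0 with 75th percentile normalization, with the authors' log2 table, with no filter, with 1 feature per locus, with no fold limit, with only the 4 heat arrays and with no replicate block. It was 31 with normexp, 16 with limma's trend and robust options, 3 (HSP101, AT2G29500 and BAM1) among features above background on all 8 arrays, 358 at an unadjusted P with over 2-fold, and 103 by the methods' t-test before adjustment. Leaving out 1 array gave 0 to 6, with 6 without bam1 heat replicate 2, all of them higher in bam1 replicate 1 and none of them in the heat lists. BAM1 differed by -4.72 with no replicate block (limma adjusted P = 0.134). It passed adjustment with normexp (-3.91, limma adjusted P = 0.00189), with the trend and robust options (-4.72, adjusted P = 0.0158) and above background on all 8 arrays (-4.72, adjusted P = 0.0226), and at -4.72 it was also past the threshold before adjustment, by limma and by the methods' t-test. Without 1 array it was -5.16 to -4.29. Features over 2-fold apart on both slides numbered 116, but 41 with normexp and 40 above background on all 8 arrays, and 928 (600 higher, 328 lower) and 552 (186 higher, 366 lower) passed on the first and the second slide alone, where the balance of directions turned. Of the 116, 37 had the same sign on both slides without stress, against 13 of the 41 and 11 of the 40.

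All 17 small heat shock proteins were higher in bam1 on each slide alone, under every normalization tried and without any 1 array. Their median was 2.08, and 1.95 to 1.99 under other normalizations. With an unadjusted P below 0.05, 13 to 15 of the 17 were higher without 1 array, and 7 among the 9 that were above background on all 8 arrays. The fits of this list without an array, without the block, with other filters and with other variance options were chosen after seeing the data. Of 84 named genes and features, 8 changed sign in at least 1 fit without an array. CCA1 was -0.23 without Col-0 heat replicate 1 and -0.094 without bam1 heat replicate 2, with a highest value of 0.89. FLA13 was 0.083 and 0.098 in these fits, with a lowest of -0.31. FRUCT5 ran from -0.89 to 0.0062, without Col-0 heat replicate 2 and 1. GolS2 was 0.20 without Col-0 heat replicate 2 and 0.055 without bam1 heat replicate 1, with a lowest of -0.79. Without bam1 heat replicate 1 and 2, FLA9 was -0.059 and 0.44, CER1 was -0.078 and 0.77 and APL4 was 0.0075 and -0.65, and GSTF12 was 1.95 and -0.066. The cause was not tested. The replicate block changed no call.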
